A study of Homo sapiens with 8 samples.

Results

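The tumour suppressor p53 was followed here through 9 genes that it switches on or that hold it in check. They are MDM2, MDM4, BBC3, BAX, GDF15, SESN1, RRM2B, ZMAT3 and TP53INP1. They were chosen by name, and each symbol was matched to 1 Ensembl gene among the 58206 genes of the deposited count table. RNA came from Alexander1 cells, an established epithelial line from a human hepatocellular carcinoma. The 4 libraries labelled wt are from the parental line, whose Axin1, a scaffold that restrains canonical Wnt signalling, lacks the part that binds the kinase GSK3. The 4 libraries labelled Axin1+ are from a stable derivative given Axin1 by a VSVG retrovirus carrying a plasmid, with hygromycin B used to select clones. All libraries carry the same text on transduction in their labels, no drug or other stress is named for either group, and whether the Axin1+ libraries came from 1 clone is not stated. Nothing in the labels says that replicates were separate cultures, so the p-values below measure the spread between these libraries, which may be technical.

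p53 is a transcription factor that is made continuously and destroyed quickly. In unstressed cells its own target MDM2 tags it for degradation, and MDM4 covers its activating part. After DNA damage or other stress the protein accumulates and switches on genes for cell cycle arrest, DNA repair, metabolic adjustment or cell death. In the liver this network is known as a barrier to tumour formation, and hepatocellular carcinomas often carry lesions in it.

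The best known link between p53 and this group lies in MDM2 itself, which has a second promoter inside its first intron that p53 can bind. The stretch below is shown because, among the 7 members searched, it was the only promoter with a match to the p53 binding consensus. It lies at chr12:68808903-68808962, plus strand, GRCh38.p14 (RefSeq promoter table), and no annotated exon of GENCODE 29 falls in it. The capitals mark the 20 matching bases, which begin 94 bases before the nearest listed start and have 2 mismatches to the consensus.
MDM2 internal promoter: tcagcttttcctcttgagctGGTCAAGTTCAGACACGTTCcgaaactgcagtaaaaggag
The search was for 2 abutting p53 consensus elements of 10 bases in the 250 bases before a start, on both strands, with the core C and G of each kept and at most 2 other mismatches. RefSeq windows were matched for 7 members, MDM2, MDM4, BBC3, BAX, GDF15, SESN1 and ZMAT3, and MDM2 was the 1 with a match, in the windows of its internal starts and not in those of its first promoter. RRM2B and TP53INP1 had no window and were not searched, and sites farther from a start were outside the search. Among the p53 target genes listed further below, AEN and FAS also held a match. Of all 35116 windows searched, 0.242% held such a match. A match is a description of these letters, and the counts are per gene, so transcripts from the MDM2 promoters were not told apart.

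Library depth was 11232951 to 15263761 counts in parental and 12372436 to 26400782 counts in Axin1+ libraries. All 9 members passed the filter on low counts, among 14289 genes that did. Levels are given as CPM, the count scaled to a common library total after TMM adjustment, and 3 counts correspond to between 0.108 and 0.267 CPM. AXIN1, the gene the derivative was made to restore, was measured at 55.3, 52.8, 47.4 and 54.2 CPM across parental replicates 1 to 4. In Axin1+ replicates 1 to 4 it was measured at 47.6, 48.0, 48.2 and 37.7 CPM, so its mRNA was not higher under the Axin1+ label (log2 fold change -0.21, SE 0.12, edgeR adjusted p = 0.267) and every direction below rests on the labels. The sources do not say if reads of the introduced copy count toward this gene. Axin1+ replicate 1 stood apart on the first principal component (22.2, against 48.7 to 56.8 for the other Axin1+ libraries and -46.7 to -42.6 for parental ones), and parental replicate 1 on the second (61.5, against -30.3 to 25.0). Hepatocyte markers were present throughout, with all 13 listed genes tested and a summed level of 28800 to 33300 CPM in parental and 24900 to 28900 CPM in Axin1+ libraries. Of these 13, 3 were higher and 2 lower in Axin1+ libraries, or 38.5% called where 19.2% of all tested genes were, and the part of this in the results below was not tested. Among markers of other cells, PTPRC, CD74 and CD3E (leukocytes) and VWF, CDH5 and KDR (endothelium) were at or under 0.413 CPM in each library, COL1A2, COL3A1, DCN and LUM (fibroblasts) at or under 0.215 CPM. The other fibroblast markers were PDGFRB, which fell from a mean of 1.69 to 0.221 CPM (log2 fold change -2.87, edgeR adjusted p = 0.00454), and COL1A1, at 0.609 to 2.05 CPM in parental and 0.991 to 3.91 CPM in Axin1+ libraries (edgeR adjusted p = 0.308). Summed over each whole list, fibroblast markers held 2.71 to 3.22 CPM in parental and 1.23 to 4.59 CPM in Axin1+ libraries, and leukocyte markers 421 to 949 and 672 to 920 CPM, nearly all from LYZ. The endothelial marker PECAM1 was at 4.47 to 6.5 CPM in parental and 33.8 to 58.3 CPM in Axin1+ libraries, and its part in the results below was not tested.

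The comparison asked whether the p53 network differed between the parental cells and the Axin1+ derivative. TP53INP1 and RRM2B rose in the Axin1+ libraries, by 1.69-fold and 1.78-fold. The other 7 members did not pass the test. In these bulk libraries, a change in the share of cells expressing a gene and a change in its RNA per cell cannot be told apart. These 2 of 9 members, or 22.2%, stand beside 19.2% of all tested genes called in either direction, and the 2 higher members beside 10.4% of all genes called higher. A call is an adjusted p under 0.05 in edgeR's quasi-likelihood test, with Benjamini-Hochberg adjustment over the 14289 genes tested. No member was called lower, none had an unadjusted p under 0.05 in that direction, and DESeq2 and limma-voom also called 0 members lower, against 8.77% of all genes called lower by edgeR. The median log2 fold change of the members, Axin1+ over parental, was 0.22 beside 0.00 for all tested genes, and their median absolute change was 0.22 beside 0.31. In 3 members, SESN1, RRM2B and TP53INP1, the groups did not overlap, where 23.9% of all tested genes had groups that did not. Without both replicates numbered 1, 3 members were called, ZMAT3 being the added one, while the calls over all genes also went up, from 2738 to 4623.

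**Figure D1:**
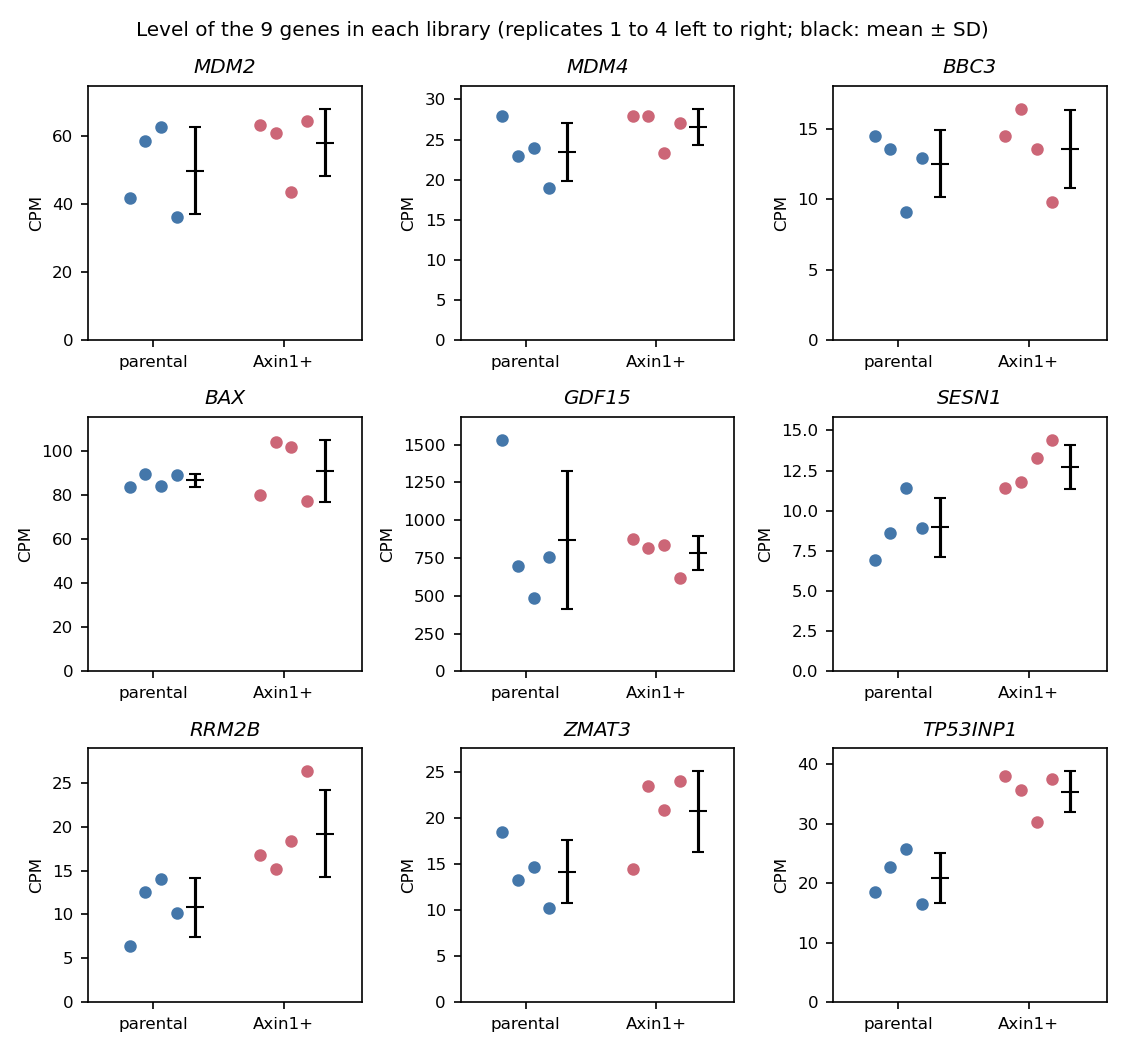
Level of each of the 9 genes in CPM (vertical axes, from 0) in the 4 parental (blue) and 4 Axin1+ (red) libraries, replicates 1 to 4 from left to right, with the group mean ± SD in black. RRM2B and TP53INP1 are separated between the groups, and the SESN1 groups touch at 11.4 CPM. GDF15 is highest in parental replicate 1 at 1530 CPM, and the other panels overlap.

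Levels between genes were compared per kilobase of exon (RPKM, using the union of annotated exons, which lowers the value of genes with many unused exons). In the parental libraries GDF15 was highest with 416 RPKM ± 219 (SD, n = 4), followed by BAX with 33.5 RPKM ± 1.22 (SD, n = 4). Below these came BBC3, MDM2 and TP53INP1, with mean levels of 3.94, 3.75 and 3.69 RPKM and ranges that overlapped from neighbour to neighbour. TP53INP1 was above MDM4 in each parental library, at 2.93 RPKM or more against 2.53 RPKM or less. The lowest positions, MDM4, RRM2B, SESN1 and ZMAT3 with means from 2.13 down to 1.47 RPKM, were not separated from their neighbours. In the Axin1+ libraries GDF15 and BAX again led, with 376 RPKM ± 54.3 and 35.2 RPKM ± 5.43 (SD, n = 4 each). TP53INP1 came next, at 6.24 RPKM ± 0.618 (SD, n = 4), with its lowest library (5.35 RPKM) above the highest of MDM2 (4.86 RPKM). From MDM2 to ZMAT3, at mean levels of 4.37 to 2.15 RPKM, no neighbours in the Axin1+ order were separated.

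The inhibitors MDM2 and MDM4 were described first, because MDM2 is both a brake on p53 and among its strongest target genes. MDM2 (ENSG00000135679, chromosome 12, 68808176 to 68850686, plus strand, GRCh38, GENCODE 29) encodes the ubiquitin ligase that marks p53 for destruction. Parental replicates 1 to 4 held 41.7, 58.6, 62.7 and 36.3 CPM of it, and Axin1+ replicates 1 to 4 held 63.3, 61.0, 43.5 and 64.6 CPM. The same order of replicates is used for the genes that follow. Parental replicates 1 and 4 and Axin1+ replicate 3 were low, and the groups overlapped. The log2 fold change came to 0.22 (SE 0.20, edgeR adjusted p = 0.460), with a 95% confidence interval of -0.21 to 0.65. The upper bound of this interval lies below the log2 fold changes measured for TP53INP1 and RRM2B, which themselves carry errors, and the difference between genes was not tested. Exons of MDM2 overlap those of the carboxypeptidase M gene on the opposite strand, which held 14.1 to 25.2 CPM over the 8 libraries. The sources do not say if counting was stranded.

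MDM4 (ENSG00000198625, chromosome 1, 204516379 to 204558120, plus strand) encodes the MDM2 relative that binds and silences p53 without degrading it on its own. Its level was 27.9, 23.0, 23.9 and 19 CPM in the parental and 27.9, 28.0, 23.3 and 27.1 CPM in the Axin1+ libraries. The groups overlapped, with parental replicate 1 as high as the Axin1+ libraries. For MDM4 the log2 fold change was 0.18 (SE 0.15, edgeR adjusted p = 0.419), with a 95% confidence interval of -0.14 to 0.51, and the tested genes around it had the same median, 0.18. The ratio of MDM2 to MDM4 within a library, on a log2 scale of CPM with a prior count of 2, was 1.06 ± 0.38 in the parental and 1.11 ± 0.15 in the Axin1+ libraries (SD, n = 4 each). The difference of 0.05 was smaller than the spread (exact two-sided permutation test over 70 labelings, p = 0.83, adjusted p = 0.857 over 4 such ratios).

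Among the apoptosis genes, BBC3 and BAX encode successive steps of mitochondrial cell death. BBC3 (ENSG00000105327, chromosome 19, 47220822 to 47232766, minus strand) encodes PUMA, a BH3-only protein that frees or activates the pore formers. It stood at 14.5, 13.6, 9.09 and 12.9 CPM in the parental and 14.5, 16.4, 13.6 and 9.84 CPM in the Axin1+ libraries. The groups overlapped over most of their range, and each held 1 low library, parental replicate 3 and Axin1+ replicate 4. The log2 fold change came to 0.11 (SE 0.20, edgeR adjusted p = 0.731), with a 95% confidence interval of -0.34 to 0.56, resting on 102 to 405 counts per library.

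BAX (ENSG00000087088, chromosome 19, 48954815 to 48961798, plus strand) encodes a protein that permeabilises the outer mitochondrial membrane. Its level was 83.6, 89.7, 84.3 and 89.0 CPM in the parental and 80.2, 104, 102 and 77.5 CPM in the Axin1+ libraries. The Axin1+ values lay on both sides of the parental ones, with replicates 2 and 3 above and replicates 1 and 4 below all of them. For BAX the log2 fold change was 0.07 (SE 0.13, edgeR adjusted p = 0.742), with a 95% confidence interval of -0.21 to 0.35, the narrowest interval among the 9 genes. BAX was also set against BCL2L1, which encodes the anti-apoptotic protein BCL-XL and held 378 CPM ± 34.1 in parental and 326 CPM ± 43.1 in Axin1+ libraries (SD, n = 4 each). The log2 ratio of BAX to BCL2L1 was -2.12 ± 0.12 in the parental and -1.85 ± 0.31 in the Axin1+ libraries (SD, n = 4 each), a difference of 0.28 that did not pass (exact two-sided permutation test, p = 0.171, adjusted p = 0.342 over 4 ratios). Without Axin1+ replicate 1, at -2.26 the lowest of the 8 libraries, the difference was 0.42 with an unadjusted exact p of 0.0286, which is the smallest that 4 against 3 libraries allow.

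**Figure D2:**
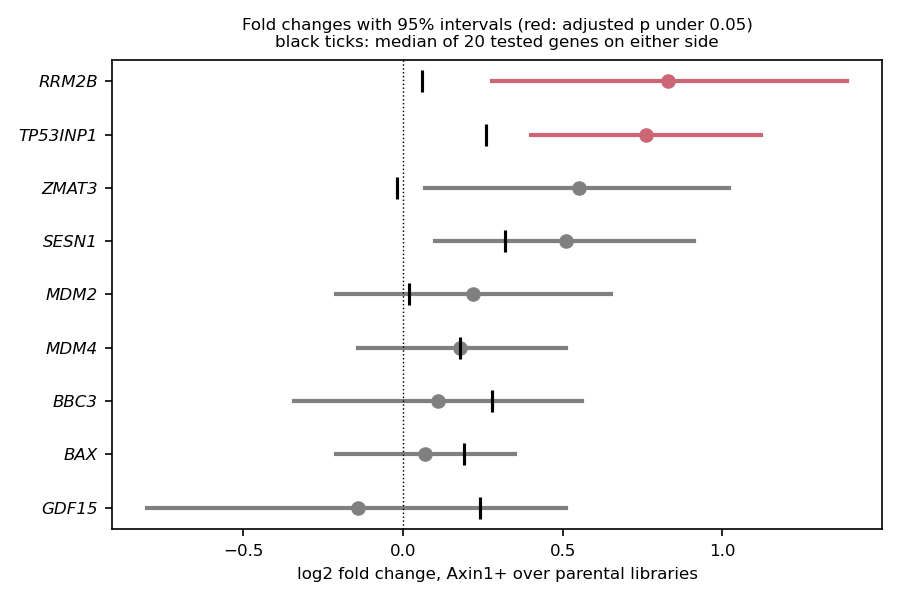
Log2 fold change of each of the 9 genes, Axin1+ over parental libraries (horizontal axis, points), with 95% confidence intervals (bars, red where the adjusted p is under 0.05) and the median log2 fold change of the 20 tested genes on either side along the chromosome (black ticks). The intervals of RRM2B, TP53INP1, ZMAT3 and SESN1 exclude 0 before adjustment, and RRM2B and TP53INP1 are the 2 called after it.

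TP53INP1 (ENSG00000164938, chromosome 8, 94925972 to 94949411, minus strand) encodes a nuclear and autophagy-linked protein that promotes p53 phosphorylation and cell death under stress. The parental libraries held 18.5, 22.8, 25.8 and 16.6 CPM, the Axin1+ libraries 38.0, 35.7, 30.4 and 37.5 CPM. All 4 Axin1+ libraries were above the highest parental one, with a gap from 25.8 to 30.4 CPM. For TP53INP1 the log2 fold change was 0.76 (SE 0.16, edgeR adjusted p = 0.0102), with a 95% confidence interval of 0.40 to 1.12. TP53INP1 was called in all 18 alternative analyses, where its log2 fold change reached down to 0.66 (parental replicate 4 left out) and up to 0.87 (parental replicate 3 left out), with adjusted p from 0.000306 to 0.0353. The tested genes on either side of it had a median of 0.26, which leaves 0.50 after subtraction. Its relative TP53INP2, an autophagy factor not counted among the 9 genes, also rose by 0.46 on the log2 scale (SE 0.12, edgeR adjusted p = 0.0237). Of 6 tested relatives of members, TP53INP2 was the 1 called (16.7%, beside 19.2% of all tested genes). Its mean level went from 149 CPM ± 17.8 to 205 CPM ± 8.65 (SD, n = 4 each). TP53INP2 lost its call when any of parental replicates 2, 3 and 4 or Axin1+ replicates 2, 3 and 4 was left out, at log2 fold changes of 0.38 to 0.47 and adjusted p of 0.0556 to 0.0641.

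RRM2B (ENSG00000048392, chromosome 8, 102204502 to 102239118, minus strand) encodes p53R2, the small ribonucleotide reductase subunit that supplies DNA building blocks for repair outside S phase. Its level was 6.41, 12.6, 14.0 and 10.2 CPM in the parental and 16.8, 15.2, 18.4 and 26.3 CPM in the Axin1+ libraries. The groups did not overlap, although parental replicate 3 and Axin1+ replicate 2 came close, and the lowest and highest values were those of parental replicate 1 and Axin1+ replicate 4. For RRM2B the log2 fold change was 0.83 (SE 0.25, edgeR adjusted p = 0.0413), with a 95% confidence interval of 0.28 to 1.39, beside a median of 0.06 for its tested neighbours. The call was lost without parental replicate 2 (0.91, adjusted p = 0.0711), parental replicate 4 (0.80, adjusted p = 0.0877), Axin1+ replicate 3 (0.85, adjusted p = 0.0870) or Axin1+ replicate 4 (0.64, adjusted p = 0.135). It held without both replicates numbered 1. The S-phase subunit RRM2 was at 8.28 CPM in parental replicate 1, 32.2 to 42.3 CPM in the other parental libraries and 32.5 to 67.6 CPM in the Axin1+ libraries. The log2 ratio of RRM2B to RRM2 was -1.30 ± 0.71 in parental and -1.20 ± 0.59 in Axin1+ libraries (SD, n = 4 each), with no difference beyond the spread (0.10, exact two-sided permutation p = 0.857, adjusted p = 0.857), and leaving out parental replicate 4 or Axin1+ replicate 3 or 4 turned its sign.

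SESN1 (ENSG00000080546, chromosome 6, 108986437 to 109094819, minus strand) encodes sestrin 1, which restrains mTORC1 and limits peroxide stress. Its level was 6.94, 8.60, 11.4 and 8.95 CPM in the parental and 11.4, 11.8, 13.3 and 14.4 CPM in the Axin1+ libraries. The groups touched without overlapping, since parental replicate 3 and Axin1+ replicate 1 both rounded to 11.4 CPM. With a log2 fold change of 0.51 (SE 0.18, 95% confidence interval 0.10 to 0.91) the gene did not pass (edgeR adjusted p = 0.0787), while the DESeq2 Wald test called it (0.50, adjusted p = 0.0462). Neighbouring genes had a median of 0.32. The second sestrin gene, SESN2, which responds to the amino acid and stress factor ATF4 as well as to p53, stood at 53.1 CPM ± 16.8 in parental and 40.2 CPM ± 21.5 in Axin1+ libraries (SD, n = 4 each; log2 fold change -0.40, SE 0.32, edgeR adjusted p = 0.414). SESN2 was at 72.4 CPM in Axin1+ replicate 1 and between 28.1 and 31.9 CPM in the other Axin1+ libraries. It was called lower without that replicate (log2 fold change -0.85, edgeR adjusted p = 0.0236). The log2 ratio of SESN1 to SESN2 was -2.52 ± 0.62 in the parental and -1.53 ± 0.76 in the Axin1+ libraries (SD, n = 4 each), and the difference of 0.99 did not pass (exact two-sided permutation test, p = 0.0857, adjusted p = 0.342).

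**Figure D3:**
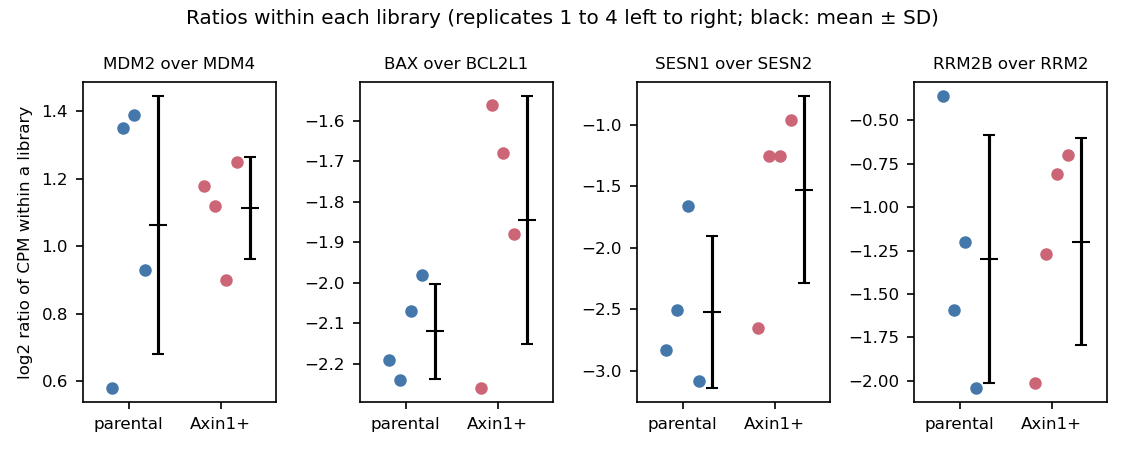
Log2 ratio of the CPM of 2 genes within each library (vertical axes, which differ between panels) in the 4 parental (blue) and 4 Axin1+ (red) libraries, replicates 1 to 4 from left to right, with the group mean ± SD in black. The groups overlap in all 4 panels, and Axin1+ replicate 1 is the lowest Axin1+ library for BAX over BCL2L1, SESN1 over SESN2 and RRM2B over RRM2.

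ZMAT3 (ENSG00000172667, chromosome 3, 179017223 to 179072279, minus strand) encodes a zinc finger RNA-binding protein that alters splicing and mRNA stability downstream of p53. Its level was 18.5, 13.3, 14.7 and 10.2 CPM in the parental and 14.5, 23.5, 20.8 and 24.0 CPM in the Axin1+ libraries. Parental replicate 1 was the highest parental and Axin1+ replicate 1 the lowest Axin1+ library, and the groups overlapped through these. Over all libraries it did not pass (edgeR adjusted p = 0.102), its log2 fold change being 0.55 (SE 0.22) and the 95% confidence interval 0.07 to 1.02. The gene was called higher without parental replicate 1 (0.70, adjusted p = 0.0300), without Axin1+ replicate 1 (0.69, adjusted p = 0.0348) and without both (0.84, adjusted p = 0.00228). The last value is more than 1.5 times the main one.

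GDF15 (ENSG00000130513, chromosome 19, 18374731 to 18389176, plus strand) encodes a secreted stress cytokine that is induced by p53 and also by ATF4 and CHOP, the transcription factors of the integrated stress response. It was the most abundant member, at 1530, 697, 486 and 757 CPM in the parental and 873, 815, 833 and 619 CPM in the Axin1+ libraries. The 4 Axin1+ values lay inside the parental range, which parental replicate 1 extended upward. For GDF15 the log2 fold change was -0.14 (SE 0.30, edgeR adjusted p = 0.766), with a 95% confidence interval of -0.80 to 0.51. Its sign turned without parental replicate 1, to 0.28 (adjusted p = 0.277), so the direction of GDF15 rested on that library. Of 15 tested genes that ATF4 or CHOP drive or that encode these factors, 9 had their highest parental level in parental replicate 1, and the summed level of the list was 3429 CPM there against 2473 to 2959 CPM in the other parental libraries. Among the Axin1+ libraries 11 of the 15 were highest in replicate 1, where GDF15 was highest as well. The summed level there was 2760 CPM, against 2066 to 2625 CPM in the other Axin1+ libraries. NUPR1, 1 of the 15, held 848 CPM in parental replicate 1 against 434 to 500 CPM in the other parental libraries. In Axin1+ replicate 1 NUPR1 was at 188 CPM, against 335 to 527 CPM in the others. How many of all tested genes were highest in these libraries was not counted. The part of the ATF4 and CHOP genes in the GDF15 level was not tested.

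To place the 9 genes in their network, other genes were read from the same fit by role. Of 14 target genes for cell cycle arrest and DNA repair, 13 were tested, 2 were higher, 0 were lower and 11 were not called, with a median log2 fold change of 0.04. The 15.4% called is under the 19.2% of all tested genes. In that list 1 gene had an unadjusted p under 0.05 in the lower direction, and DESeq2 and limma-voom called 0 lower. CDKN1A, the p53 target that encodes the cyclin-dependent kinase inhibitor p21, stood at 41.7, 34.0, 39.0 and 35.1 CPM in the parental and 129, 184, 162 and 160 CPM in the Axin1+ libraries. It rose 4.24-fold (log2 fold change 2.08, SE 0.14, edgeR adjusted p = 8.45e-06), a larger change than that of any of the 9 members, with no overlap between the groups. TOB1, which encodes an antiproliferative protein, rose by 0.58 on the log2 scale (SE 0.13, edgeR adjusted p = 0.0102), with means of 86.1 CPM ± 5.71 in the parental and 129 CPM ± 16.9 in the Axin1+ libraries (SD, n = 4 each), beside a neighbour median of 0.47.

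**Figure D4:**
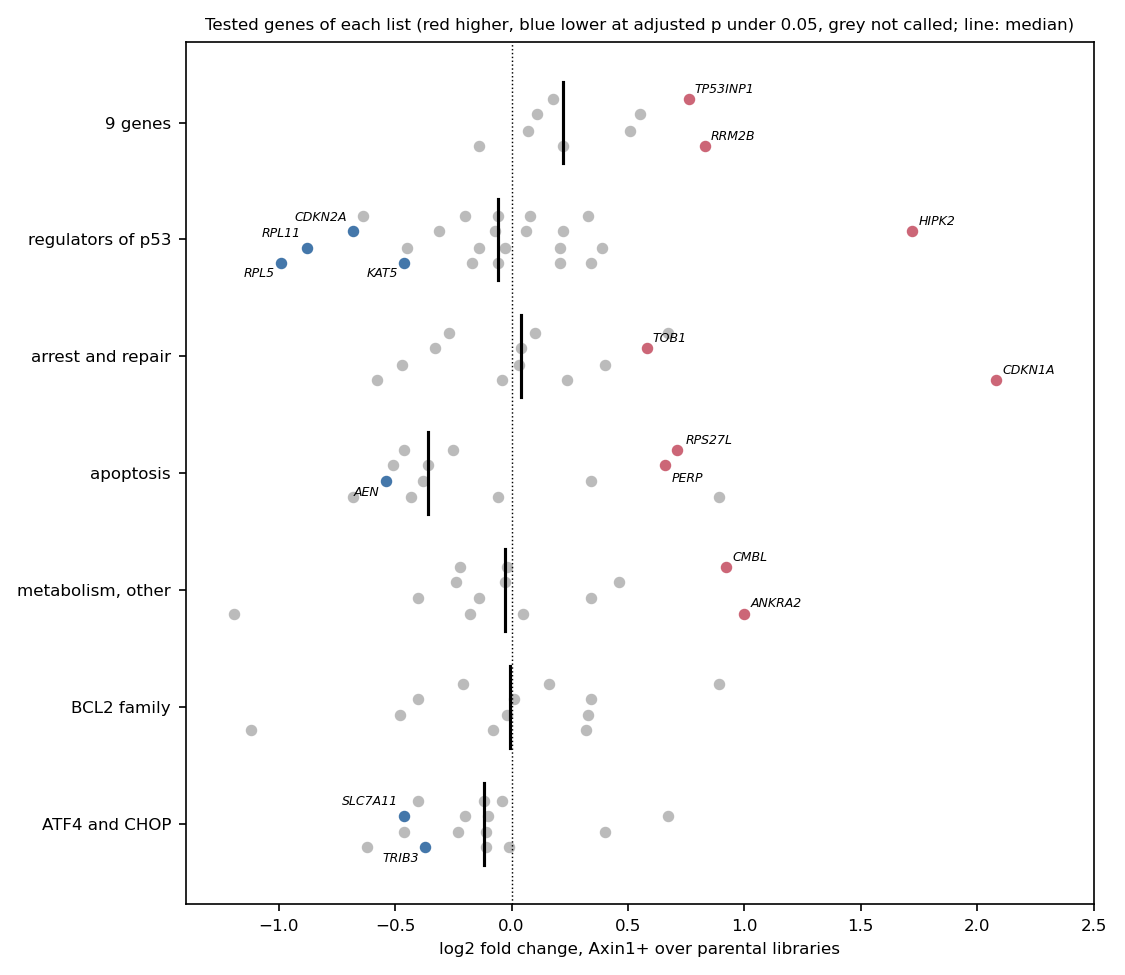
Log2 fold change, Axin1+ over parental libraries (horizontal axis), of every tested gene in the 9-gene group and in 6 lists of related genes (rows), with calls at an adjusted p under 0.05 in red (higher) or blue (lower), uncalled genes in grey and the list median as a black line. CDKN1A lies at 2.08, and the 2 called members lie at 0.76 and 0.83.

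Of 17 apoptosis targets, 13 were tested, with 2 higher, 1 lower and 10 not called (23.1% called, beside 19.2% of all tested genes) and a median log2 fold change of -0.36. At an unadjusted p under 0.05 there were 3 higher and 6 lower, DESeq2 called 3 higher and 5 lower, and limma-voom 2 higher and 1 lower, so the balance of directions depended on the tool and threshold. Over all tested genes these counts were 2447 and 2339, 1775 and 1729, and 1513 and 1311. The 6 lower genes included TNFRSF10A, TNFRSF10B, TNFRSF10C and TNFRSF10D, which lie side by side on chromosome 8 (log2 fold changes -0.43, -0.46, -0.68 and -0.51). Their neighbour medians were -0.22 to -0.26, and the part of this region in the list was not tested. RPS27L, a ribosomal protein relative induced by p53, rose by 0.71 on the log2 scale (SE 0.16, edgeR adjusted p = 0.0129), with means of 50.5 CPM ± 8.31 in the parental and 83.0 CPM ± 14.1 in the Axin1+ libraries (SD, n = 4 each). PERP, a desmosomal p53 target, had a log2 fold change of 0.66 (edgeR adjusted p = 0.0457), and leaving out any 1 library other than parental replicate 1 ended that call, at adjusted p of 0.0531 to 0.131. AEN, a nuclease acting in apoptosis, fell by 0.54 on the log2 scale (SE 0.12, edgeR adjusted p = 0.0105), with means of 70.2 CPM ± 4.99 in the parental and 48.2 CPM ± 4.89 in the Axin1+ libraries (SD, n = 4 each). Neighbour medians were 0.18 for RPS27L, 0.29 for PERP and -0.27 for AEN. The death receptor gene FAS was at or under 0.0781 CPM in each library. In the BCL2 family list, which holds the partners of BBC3 and BAX, edgeR called 0 of 12 tested genes, beside 19.2% of all tested genes. An unadjusted p under 0.05 was reached there by 1 gene in the higher and 2 in the lower direction, DESeq2 called 1 higher and 1 lower, and limma-voom called 0.

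**Figure D5:**
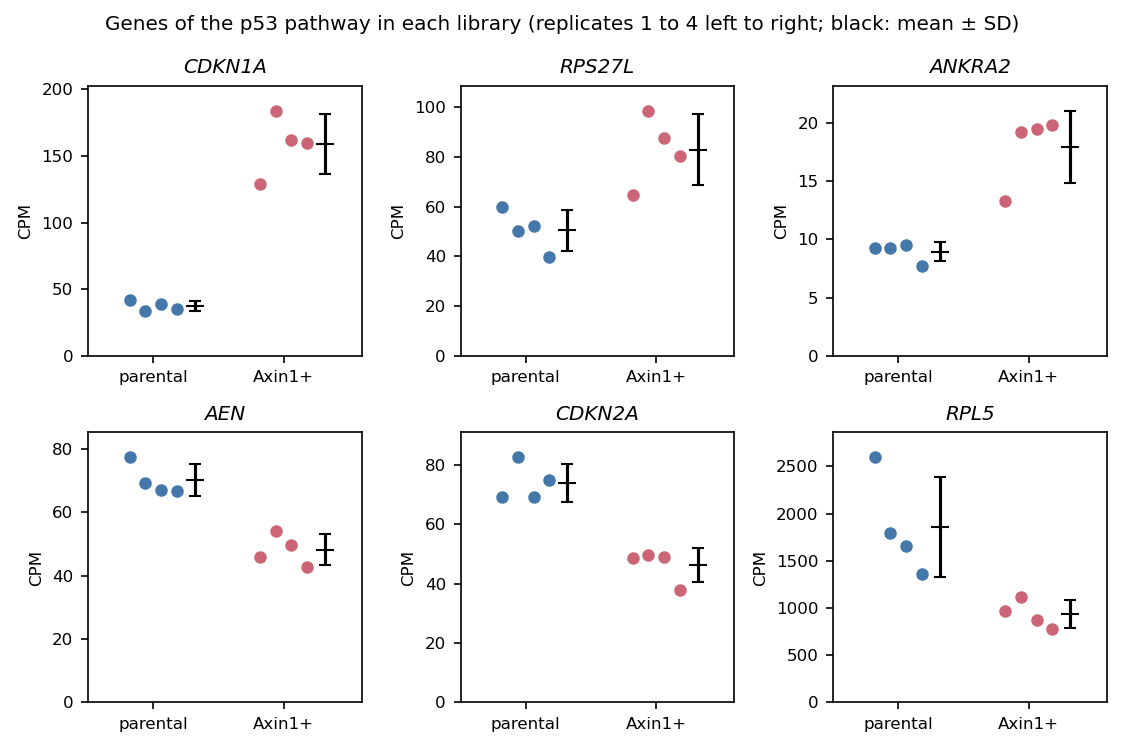
Level in CPM (vertical axes, from 0) of 6 further genes of the p53 pathway in the 4 parental (blue) and 4 Axin1+ (red) libraries, replicates 1 to 4 from left to right, with the group mean ± SD in black. CDKN1A, RPS27L and ANKRA2 are higher and AEN, CDKN2A and RPL5 lower in all Axin1+ libraries than in any parental one.

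Of 17 targets with metabolic or other roles, 13 were tested, 2 were higher, 0 lower and 11 not called (15.4% called, beside 19.2% of all tested genes), with a median log2 fold change of -0.03. In that list 1 gene had an unadjusted p under 0.05 in the lower direction, and DESeq2 and limma-voom called 0 lower. ANKRA2, an ankyrin-repeat protein gene, rose from 8.95 CPM ± 0.822 to 17.9 CPM ± 3.12 (log2 fold change 1.00, SE 0.18, edgeR adjusted p = 0.00349, SD over n = 4 each), beside a neighbour median of 0.4. CMBL, a hydrolase gene, rose from 26.6 CPM ± 2.88 to 50.5 CPM ± 15.7 (log2 fold change 0.92, SE 0.22, edgeR adjusted p = 0.0160, SD over n = 4 each), beside a neighbour median of 0. Exons of ANKRA2 overlap those of the expressed gene UTP15, and those of BCL2L1, RRM2, TOB1, CDKN2A, RPL5, KAT5, STXBP4, METTL18, TNFRSF10A, TNFRSF10B and LYZ likewise overlap another expressed gene, so their counts are uncertain to that extent.

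Regulators acting on p53 or its inhibitors formed a list of 23 genes, all tested, of which 1 was higher, 4 lower and 18 not called, with a median log2 fold change of -0.06. The 21.7% called is near the 19.2% of all tested genes, and limma-voom called 0 higher and 4 lower. CDKN2A, whose alternative frame encodes ARF, an inhibitor of MDM2, stood at 69.1, 82.6, 69.0 and 74.9 CPM in the parental and 48.7, 49.7, 48.8 and 37.9 CPM in the Axin1+ libraries. It fell by 0.68 on the log2 scale (SE 0.13, edgeR adjusted p = 0.00530), and the gene count does not separate ARF from the p16 transcript. RPL5 and RPL11, whose proteins bind MDM2 when ribosome assembly fails, both fell. RPL5 was at 1860 CPM ± 530 in parental and 935 CPM ± 145 in Axin1+ libraries (SD, n = 4 each; edgeR adjusted p = 0.00843), and RPL11 at 1050 CPM ± 381 and 568 CPM ± 109 (SD, n = 4 each; edgeR adjusted p = 0.0246). The highest level of RPL5 and of RPL11 was in parental replicate 1, at 2600 and 1610 CPM, and the call of RPL11 was lost without parental replicate 2 (adjusted p = 0.0530), Axin1+ replicate 3 (0.0725) or Axin1+ replicate 4 (0.0830). The acetyltransferase gene KAT5 fell (log2 fold change -0.46, edgeR adjusted p = 0.0212), a call lost without parental replicate 2 (-0.48, adjusted p = 0.0536) or Axin1+ replicate 4 (-0.42, adjusted p = 0.0729), or without the filter on low counts (-0.43, adjusted p = 0.0643). The kinase gene HIPK2 rose (edgeR adjusted p = 0.0206), its parental mean being 0.681 CPM ± 0.237 and its Axin1+ mean 2.25 CPM ± 0.928 (SD, n = 4 each), with 0.897 CPM in Axin1+ replicate 1. Its call was lost without parental replicate 2 or 3 or Axin1+ replicate 3 or 4, at adjusted p of 0.0524 to 0.0692, and in limma-voom (log2 fold change 1.54, adjusted p = 0.0543). Neighbour medians were 0.16 for CDKN2A, -0.43 for RPL5 (its own log2 fold change -0.99), -0.18 for RPL11 (-0.88), -0.32 for KAT5 and -0.13 for HIPK2. The part of the surrounding regions was not tested.

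The ATF4 and CHOP list, given because GDF15 and BBC3 also answer to those factors, had 15 tested genes with 0 higher, 2 lower and 13 not called (13.3% called, beside 19.2% of all tested genes), and a median log2 fold change of -0.12. No gene of it had an unadjusted p under 0.05 in the higher direction, and DESeq2 and limma-voom called 0 higher. TRIB3 and SLC7A11 fell, with log2 fold changes of -0.37 and -0.46 and edgeR adjusted p of 0.0485 and 0.05 (the latter just under the threshold before rounding). Their neighbour medians were -0.25 and 0.24. The call of TRIB3 was lost without any 1 library other than parental replicate 1, at adjusted p of 0.0541 to 0.144. That of SLC7A11 was lost without parental replicate 2, 3 or 4 or Axin1+ replicate 2, 3 or 4, at adjusted p of 0.0515 to 0.159. Under scaling by total counts only neither was called (adjusted p = 0.119 for TRIB3 and 0.12 for SLC7A11), nor after thinning to equal depth (0.0663 and 0.056) or without the filter on low counts (0.167 and 0.0973), and limma-voom left SLC7A11 uncalled (0.0508).

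Genes with the most similar profile were sought for the 3 members with the smallest p, by the root mean square difference of log2 CPM centred on each gene's mean, over the 8 libraries and 13481 candidate genes. For TP53INP1 the closest were TNFSF10, which encodes the death ligand TRAIL, at 0.049, and STXBP4 at 0.077, where the median candidate was at 0.522. TNFSF10 stood at 18, 23.8, 25 and 16 CPM in the parental and 35.6, 33, 30 and 36.3 CPM in the Axin1+ libraries. The order of the 4 parental libraries was the same as for TP53INP1. The highest Axin1+ library was replicate 4 for TNFSF10 and replicate 1 for TP53INP1. Because TNFSF10 was picked for its small difference from TP53INP1, a shared order and its own rise are not separate evidence. TNFSF10 was higher with a log2 fold change of 0.71 (edgeR adjusted p = 0.0153), a call lost without Axin1+ replicate 4 (0.67, adjusted p = 0.0506). For RRM2B the closest were GPR158 at 0.096 and PDE12 at 0.11 (median 0.628), and for SESN1 they were BRCC3 at 0.063 and METTL18 at 0.080 (median 0.434). These are likenesses of profiles that share the same libraries and scaling.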

How the data were processed

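RNA sequencing of mRNA libraries gave 4 parental and 4 Axin1+ libraries, grouped by their titles. The authors deposited raw counts per Ensembl gene, whole numbers without normalization. Per the submitters' processing notes, bcl2fastq, fastp 0.23.1, STAR 2.7.4 and the build GRCh38 were used. The counting program, annotation and use of strand are not given in the sources used here. All columns were matched to samples through the labels, and 0 were left over. Positions and exon lengths come from GENCODE 29.

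The counts went through edgeR 4.0.16 (R 4.3.3): filterByExpr (minimum count 10, minimum total 15), TMM scaling, and the quasi-likelihood test of the 2 groups without covariates, two-sided, adjusted by Benjamini-Hochberg over 14289 genes. Standard errors were derived from each gene's F statistic. Within-library ratios used log2 CPM with a prior count of 2. Neighbour medians use 20 tested genes on either side. Intervals and floors of 3 counts cover counting error or library spread only.

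The members and lists were chosen with earlier results of these data known, so no list is independent evidence. Named genes are the members, AXIN1, the genes of the 4 ratios, up to 5 called genes per list (smallest p) and the 2 most similar profiles of 3 members. FAS, TNFRSF10A, TNFRSF10B, TNFRSF10C, TNFRSF10D, NUPR1 and the carboxypeptidase M gene were added after their values were seen. Alternatives were no filter, scaling by total counts only, by the upper quartile or by DESeq2 size factors, a mean of at least 1 CPM, DESeq2 1.42.0, limma-voom (limma 3.58.1), the replicate number as a block, thinning to 11232951 counts, and leaving out each library or both numbered 1. The gene of p53 itself and mitochondrial genes were not analysed here.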

Additional observations from a re-analysis of the deposited data

Results flagged for a closer look

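MDM2 in Axin1+ replicate 3 was at 43.5 CPM, while the other Axin1+ libraries were at 61.0 to 64.6 CPM, so that the gap to the nearest library took 0.831 of the group's range, just past Dixon's critical value for 4 libraries. This was the 1 value marked among 26 groups examined for the 9 genes and the 4 ratios, where chance marks about 1 group in 20.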

How the results depend on the processing

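The number of all genes called was 2738 and ranged from 1394 (without Axin1+ replicate 4) to 3523 (without parental replicate 1) with 1 library left out, and without both replicates numbered 1 it was 4623. Members called numbered 2, all higher. With the replicate number as a block the number was 1, and with 1 library left out it was 1 to 3. The replicate numbers did not pair the libraries (correlation of same-numbered deviations -0.063, 0.0067, -0.032 and 0.23, with 1 of 8 libraries correlating best with its own number), and the block gave 2033 genes. In the block fit RRM2B had an adjusted p of 0.0539, and among other named genes the calls of HIPK2, KAT5, PERP, TRIB3, SLC7A11 and TP53INP2 were also lost, at adjusted p of 0.0528 to 0.0952. The log2 fold change of GDF15 turned to 0.28 without parental replicate 1 and 0.23 without both replicates numbered 1, that of BBC3 to -0.02 without parental replicate 3, that of BAX to -2e-04 without Axin1+ replicate 2, and that of RRM2 to -0.01 without both replicates numbered 1. With 1 library left out, the log2 fold change ranged from -0.35 to 0.28 for GDF15, from -0.02 to 0.25 for BBC3 and from -2e-04 to 0.14 for BAX. The difference in log2 ratio then ranged from -0.11 to 0.16 for MDM2 over MDM4, from 0.18 to 0.42 for BAX over BCL2L1, from 0.80 to 1.36 for SESN1 over SESN2 and from -0.15 to 0.41 for RRM2B over RRM2. As the block for these ratios, a sign-flip permutation over the 4 same-numbered pairs cannot give a p below 0.125, so it says nothing about their stability. DESeq2 called 8 apoptosis targets (3 higher, 5 lower) where edgeR called 3 (2 higher, 1 lower), and without both replicates numbered 1 there were 7, beside 9 regulators (5 in all libraries), 4 metabolic targets (2), 3 of the BCL2 family (0) and 4 of the ATF4 and CHOP list (2). Of all calls, 54.2% were higher with TMM scaling and 66.5% with total counts only, where the median of all genes moved to 0.09. Under total counts only, 2 members were called, 0 of the ATF4 and CHOP list (2 in the TMM fit), and PERP was not called (adjusted p = 0.051). The causes were not tested. Low counts limit RRM2B and SESN1 most among the members, with 72 and 78 counts in parental replicate 1.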
